A study of Homo sapiens with 30 samples.

Results

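NK-92 is an established human line of natural killer (NK) cells, and elraglusib (9-ING-41) is a small molecule that inhibits the kinase GSK-3. The data described here are the 6 NK-92 arrays of a series of 30: 3 arrays of cells treated with elraglusib for 24 h and 3 of cells given the vehicle DMSO for 24 h. They were chosen by the cell line and treatment in the sample labels, and no measured value entered the choice. By the labels and a legend of the study the elraglusib dose was 1 µM, while its main text speaks of IC-50 concentrations for the arrays, and which of them applied could not be settled. Cells of both groups grew in medium with recombinant IL-2, horse serum and fetal bovine serum, so every value below is from cells under IL-2. The labels call the 3 samples of a group biological replicates, all from a single line, and p-values therefore measure only the spread between these cultures. The other 24 arrays, of the cytotoxic line TALL-104 and the colorectal cancer lines HCT-116, HT-29 and KM12C under the same agents and time, serve only for comparison. RNA was read on the 1-colour Human Transcriptome Array 2.0, with 67528 probe sets given on the log2 scale, so that a difference of 1 is a 2-fold change. RNA was isolated in batches of 6 samples and the arrays were run in 2 batches, and which samples shared a batch is not given in the sources used here. Of the probe sets, 23781 carry 1 gene symbol, for 22411 genes, and the brightest probe set of a gene in NK-92 cells stands for it.

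GSK-3 is a constitutively active kinase with many substrates. It marks β-catenin for degradation within the destruction complex of AXIN and APC proteins, so its inhibition stabilises β-catenin and favours transcription of WNT target genes, and it also acts on glycogen synthase, MYC, NFAT and NF-kB proteins. NK cells kill by releasing granules that hold perforin and granzymes and by death ligands such as TRAIL, and they secrete IFN-γ and chemokines when activated. GSK-3 is known to restrain the maturation and function of NK cells, and its inhibitors are used when NK cells are expanded in culture.

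The arrays carried the labelled cell type. Of 17 NK cell markers measured, 15 had a mean signal of at least 7 in NK-92 cells, against 3 of 11 T cell markers, 3 of 9 myeloid markers, 0 of 6 B cell markers, 0 of 11 colorectal epithelial markers and 0 of 3 erythroid markers. GZMA, NKG7, GZMB, PRF1 and NCR3 were the brightest of the NK markers. The T cell markers at 7 or more were CD3E, CD28 and UBASH3A, while CD3D and CD3G, subunits of the T cell receptor complex, stayed under 5 on every array. The summed log2 signal of the NK markers was 203.6 to 210.9 on the elraglusib arrays and 206.4 to 209.7 on the DMSO arrays. Pairs of NK-92 arrays correlated at 0.9826 to 0.9966 over the 16944 probe sets with a mean above 6. The array labelled elraglusib replicate 3 stood farthest from the rest on the first principal component, which held 35.5% of the variance.

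No probe set passed an adjusted p of 0.05 between elraglusib and DMSO in NK-92 cells (limma with Benjamini-Hochberg adjustment over all 67528 probe sets, 0% called). The smallest adjusted p was 0.162. At an unadjusted p under 0.05 there were 2934 probe sets, or 4.34%, where 3376 would be reached by p-values spread evenly. Without moderation of the variances, the unpaired test called 1 probe set and the paired test 6, and limma fitted over all 30 arrays called 1. At the thresholds the study uses for its arrays, a fold change beyond 1.5 and an unadjusted p under 0.05, 449 probe sets were higher with elraglusib (0.665%) and 92 were lower (0.136%). The 3 elraglusib arrays lay above all 3 DMSO arrays at 3173 probe sets (4.7%) and below them at 2214 (3.28%). The share above was 3.23% at a mean signal under 5 and 8.47% at 11 and over, and the share below 3.44% and 5.48%. The count past the study thresholds was 1037 without elraglusib replicate 3. Of the 541 probe sets past these thresholds, 414 had several gene symbols or none, and the other 127 stood for 113 genes.

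The spread of the arrays limited how large a change could go unseen. The median standard error of a difference was 0.136 log2 units, and the median distance from a difference to the end of its 95% interval was 0.32, a 1.25-fold change. That interval lay wholly within a 1.5-fold change for 52871 probe sets (78.3%) and within a 2-fold change for 65836 (97.5%). For the 22411 genes these shares were 88.7% and 98.8%, and for the 17154 protein-coding genes they were 93.2% and 99.6%. For the 6608 protein-coding genes with a mean of at least 7 they were 90.1% and 99.3%. The counts for gene lists below can be read beside these shares. The share for 1.5-fold was lowest among probe sets with a mean signal of 5 to 7, at 72.6%, and highest at 11 and over, at 82.1%. These intervals hold for 1 probe set at a time, and none was narrow enough to exclude a 2-fold change over all probe sets together at a Bonferroni level. A lone changed probe set would need an unadjusted p of 7.4e-07 to be called, which at the median standard error is a difference of 1.97 log2 units or 3.92-fold. A 2-fold change in the signal of a single gene thus lay outside the measured interval for nearly all genes, but would not have been called on its own. However, 42605 of the 67528 probe sets had a mean signal under 5, near the floor of the array, where a lower level could not be seen. There a narrow interval bounds the signal on the array and not the level of the RNA.

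**Figure D1:**
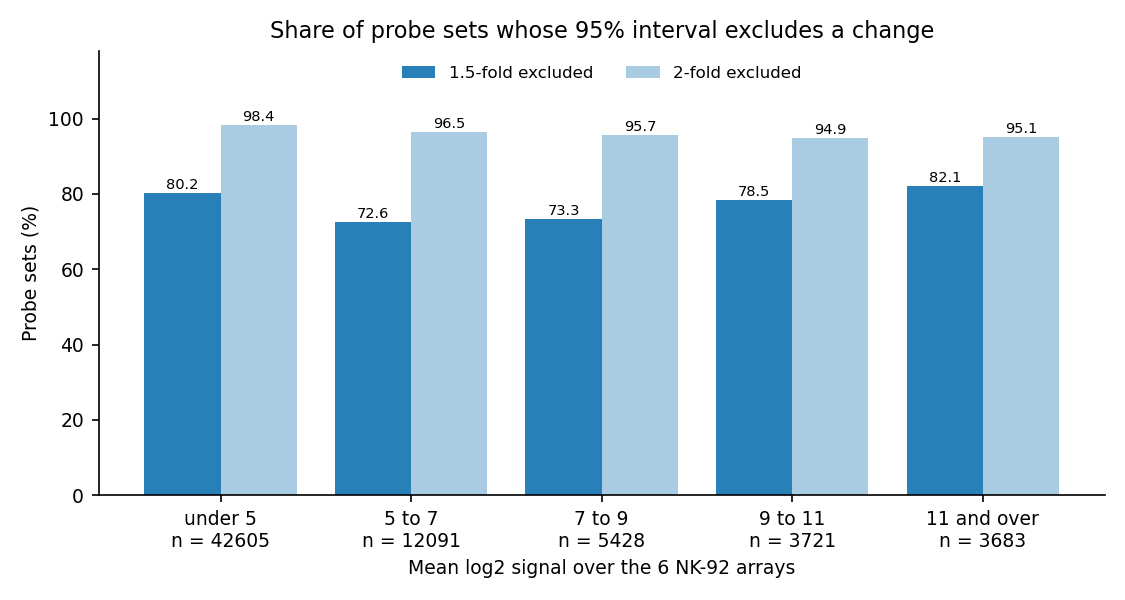
Share of probe sets (vertical axis, percent) whose 95% interval for elraglusib minus DMSO in NK-92 cells lies wholly within a 1.5-fold (dark bars) or a 2-fold change (light bars), by mean log2 signal over the 6 arrays (horizontal axis). The share for 2-fold stays between 94.9% and 98.4% at every signal level, while that for 1.5-fold runs between 72.6% and 82.1%.

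Most of the largest upward differences that separated the groups belonged to short structural RNAs. Of the 8 largest positive differences past the study thresholds without overlap, 5 were C/D box small nucleolar RNAs (snoRNAs, which guide the methylation of ribosomal RNA), 2 were 5S ribosomal RNA pseudogenes and 1 was the long non-coding RNA LINC00273. None of them passed the adjusted test, and these RNA classes were singled out after their values were seen. SNORD117 had the smallest adjusted p of all. It read 10.06, 10.17 and 10.26 with elraglusib, against 9.14, 8.86 and 9.13 with DMSO, a difference of 1.12 ± 0.121 (SE; 95% interval 0.84 to 1.40; limma adjusted p = 0.162). The groups did not overlap, and 8 probe sets for the haplotypes of the same locus hold identical values, so they count as 1 measurement; with each pattern of values taken once, the smallest adjusted p over the array was 0.733. SNORD41 read 14.45, 14.63 and 15.45 with elraglusib, against 13.45, 13.06 and 13.37 with DMSO, a difference of 1.55 (0.96 to 2.14). SNORD105B, a bright snoRNA, read 15.00, 15.46 and 15.23 with elraglusib, against 14.40, 13.91 and 14.20 with DMSO, a difference of 1.06 (0.67 to 1.45). In each of these 3 snoRNAs the lowest elraglusib array was above the highest DMSO array.

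RNA5SP243 and RNA5SP149 are pseudogene copies of the 5S RNA of the large ribosomal subunit. RNA5SP243 read 11.46, 12.65 and 11.81 with elraglusib, against 10.52, 10.00 and 10.59 with DMSO, a difference of 1.60 (0.90 to 2.30). RNA5SP149 read 12.27, 12.84 and 12.58 with elraglusib, against 11.42, 11.18 and 11.54 with DMSO, a difference of 1.18 (0.79 to 1.57). Again the groups did not overlap. The 5S copies are near-identical in sequence, their probe sets correlated with each other over the 6 arrays at a median of 0.68 among the 35 with a mean of at least 7, and the signal cannot be assigned to single copies. LINC00273 read 11.53, 11.46 and 11.64 with elraglusib, against 9.05, 10.61 and 10.82 with DMSO, a difference of 1.38 that was 0.83 without DMSO replicate 1. Its other probe set, with all 6 arrays under 5, overlapped and differed by 0.06 (-0.20 to 0.32).

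**Figure D2:**
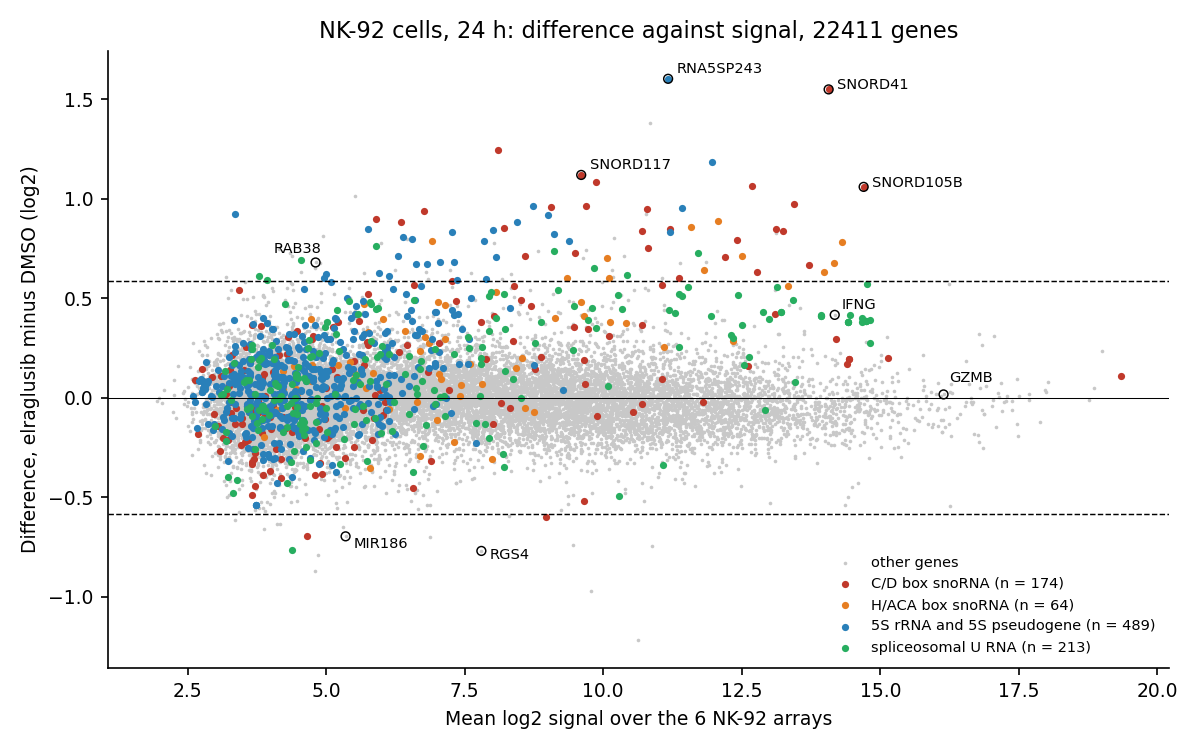
Difference between elraglusib and DMSO (vertical axis, log2) against mean log2 signal (horizontal axis) for 22411 genes in NK-92 cells, with 4 classes of short RNA in colour and dashed lines at a 1.5-fold change. Most genes lie between the dashed lines, GZMB at 0.02, whereas many of the bright coloured points lie above the upper line, up to 1.60 for RNA5SP243.

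Most members of these classes with a signal well above the floor were higher with elraglusib. Among C/D box snoRNAs with a mean of at least 7, 52 of 61 were higher with elraglusib, with a median difference of 0.41, and 23 passed the study thresholds upward and 0 downward. Among H/ACA box snoRNAs, which guide pseudouridylation, 30 of 35 were higher, with a median of 0.38 and 10 past the thresholds upward. Among 5S genes and pseudogenes 32 of 35 were higher, with a median of 0.50 and 17 past the thresholds. Among the U RNAs of the spliceosome 67 of 77 were higher, with a median of 0.38 and 4 past the thresholds. Other short RNAs at this signal had smaller medians. Small Cajal body RNAs (scaRNAs) were higher at 7 of 9, with a median of 0.17 and 1 past the thresholds. Y RNAs were higher at 8 of 12, with a median of 0.08 and 0 past them. Of 6608 protein-coding genes at the same signal 2903 were higher, with a median of -0.02 and 11 past the thresholds upward. Over all their members, dim ones included, the medians were 0.09 for 174 C/D box snoRNAs, 0.19 for 64 H/ACA box snoRNAs, 0.07 for 489 5S genes and 0.11 for 213 U RNAs, and 0 of any class was called.

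Between arrays the classes differed in how cleanly they separated, and this depended on whether dim members were counted. The median signal of the 61 C/D box snoRNAs was 10.26, 10.22 and 10.27 on the elraglusib arrays, against 10.21, 9.91 and 9.93 on the DMSO arrays. That of the 35 5S genes was 7.64, 7.93 and 7.78 with elraglusib, against 7.46, 7.41 and 7.53 with DMSO. Neither of these bright sets overlapped between the groups, although DMSO replicate 1 came close to the elraglusib arrays for the C/D box snoRNAs. With dim members included, both classes overlapped. All C/D box snoRNAs had medians of 5.265, 5.475 and 5.395 with elraglusib, against 5.295, 5.31 and 5.425 with DMSO. All 5S genes had medians of 4.44, 4.5 and 4.54 with elraglusib, against 4.51, 4.43 and 4.41 with DMSO. The 35 bright H/ACA box snoRNAs overlapped, at 9.32, 9.57 and 9.08 with elraglusib, against 9.08, 9.09 and 8.87 with DMSO. The 77 bright U RNAs overlapped too, at 10.57, 11.16 and 10.25 with elraglusib, against 10.59, 10.51 and 10.51 with DMSO. All U RNAs, dim ones included, did not, at 5.91, 5.94 and 5.81 with elraglusib, against 5.79, 5.62 and 5.7 with DMSO. Without elraglusib replicate 2 the median difference of the bright U RNAs was 0.18 and that of the H/ACA box snoRNAs 0.19, while that of the C/D box snoRNAs was 0.32 and that of the 5S genes 0.41. The counts of bright members past the study thresholds depended on single arrays for the H/ACA box snoRNAs and the U RNAs. For the H/ACA box snoRNAs, leaving out elraglusib replicate 2 gave 2 in place of 10 and leaving out replicate 3 gave 16, while leaving out DMSO replicate 2 gave 6 and replicate 3 gave 3. For the U RNAs, leaving out elraglusib replicate 1, 2 or 3 gave 8, 1 and 29 in place of 4, with a median of 0.57 in the last case, and leaving out DMSO replicate 1 or 3 gave 13 and 1. In the limma model of all 30 arrays the counts were 16 for C/D box and 2 for H/ACA box snoRNAs, 10 for 5S genes and 2 for U RNAs.

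Most snoRNAs are cut from introns of host genes, and the hosts did not show the same difference. Of the 96 bright snoRNAs, 41 lay inside exactly 1 other RefSeq gene with a probe set, for 33 hosts in all (RefSeq spans, with strand not considered). The snoRNAs of these pairs had a median difference of 0.47, with 36 of 41 higher, and their hosts a median of -0.01, with 14 of 33 higher and 0 past the study thresholds. The 95% interval excluded a 1.5-fold change for 31 of the 33 hosts. SNORD41 at 1.55 lies in TNPO2, an importin gene, which differed by 0.02 (-0.21 to 0.25). SNORD70 at 0.96 lies in NOP58, whose protein is a core part of C/D box particles, and NOP58 differed by -0.07 (-0.32 to 0.18). SNORD72, in the ribosomal protein gene RPL37, went the other way at -0.60, and was -0.235 without DMSO replicate 1. These pairs were chosen after the snoRNA values were seen.

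The same classes were read in the other lines, each over its own genes with a mean of at least 7. The median difference of C/D box snoRNAs was 0.41 in NK-92, -0.19 in TALL-104, 0.09 in HCT-116, -0.20 in HT-29 and 0.24 in KM12C cells. The TALL-104 value was -0.10 without DMSO replicate 2, which stands apart from its group. That of H/ACA box snoRNAs was 0.38 in NK-92, 0.32 in TALL-104, 0.33 in HCT-116, -0.28 in HT-29 and 0.08 in KM12C cells. That of the 5S genes was 0.50 in NK-92, 0.205 in TALL-104, -0.075 in HCT-116, -0.15 in HT-29 and -0.10 in KM12C cells. For U RNAs it was 0.38 in NK-92, 0.62 in TALL-104, 0.49 in HCT-116, 0.28 in HT-29 and 0.275 in KM12C cells, above 0 in all 5 lines. In the test of the difference between lines, 0 genes of these classes differed between NK-92 and TALL-104 cells, where 0% of all probe sets were called. Against HT-29 cells, over all members, 7 C/D box snoRNAs were higher in NK-92 and 6 lower, and 6 H/ACA box snoRNAs were lower. There 12 5S genes were lower and 0 higher, and 9 U RNAs lower and 2 higher (all probe sets: 1.43% higher, 1.69% lower). Against HCT-116 cells 4 5S genes were lower. These 5S calls ran opposite to the medians of the bright 5S genes. How far the isolation and array batches took part in these class differences was not tested.

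**Figure D3:**
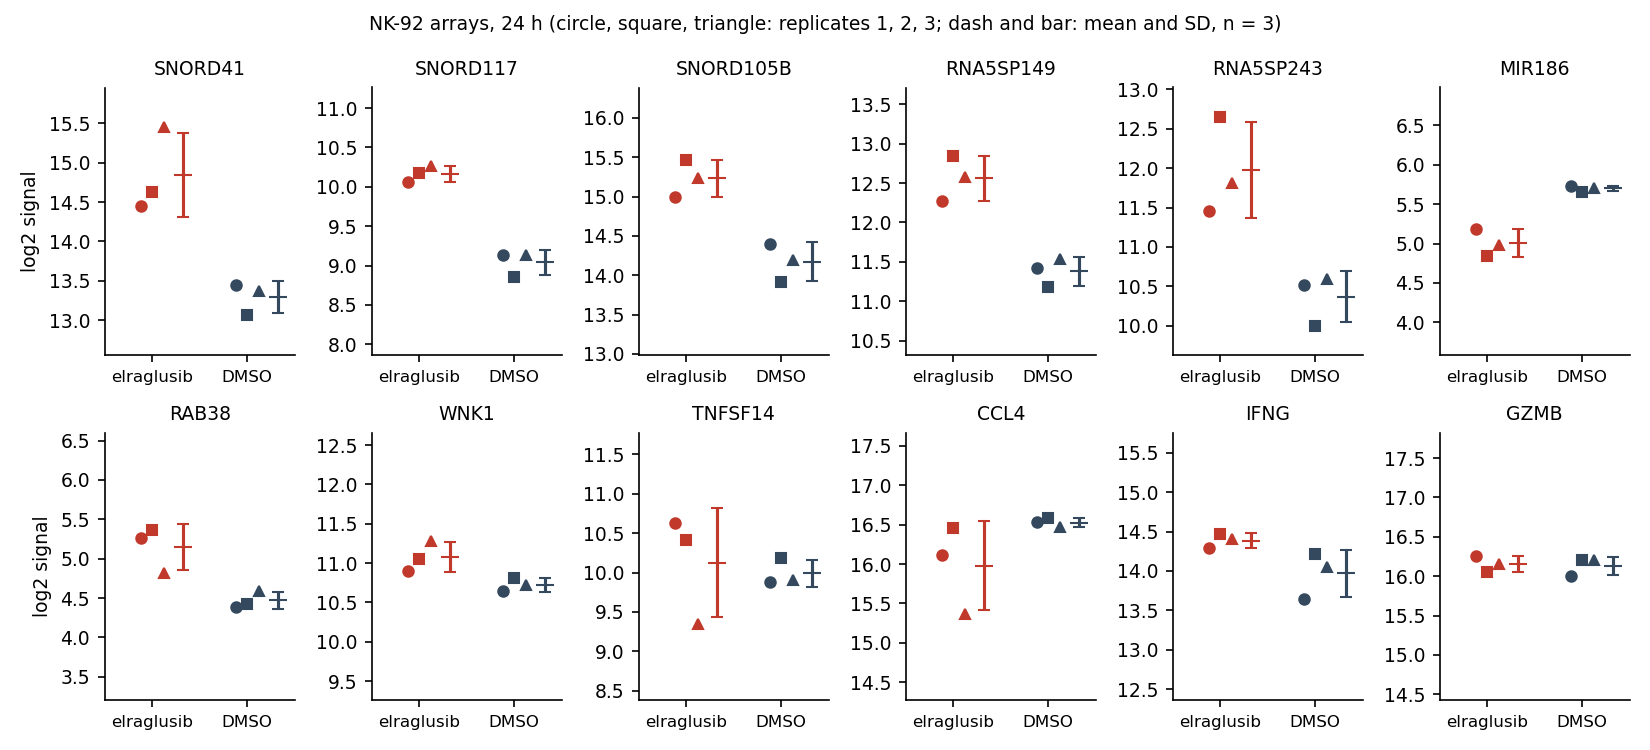
Log2 signal (vertical axis, the same span in each panel) of 12 transcripts on the 3 elraglusib and the 3 DMSO arrays of NK-92 cells, with mean and SD. The snoRNAs, 5S pseudogenes and RAB38 lie wholly above DMSO and MIR186 wholly below, while GZMB overlaps, with means of 16.15 with elraglusib and 16.13 with DMSO, and elraglusib replicate 3 is the low point of TNFSF14 and CCL4.

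MIR186, one of the genes the study names for these cells, had the smallest p among the genes that were lower. It read 5.19, 4.84 and 4.98 with elraglusib, against 5.73, 5.66 and 5.71 with DMSO, a difference of -0.70 ± 0.119 (SE; 95% interval -0.97 to -0.42; limma adjusted p = 0.585). All 3 elraglusib arrays lay below DMSO, and all 6 read under 6. The array does not tell the mature RNA from its longer precursors. ZRANB2, the gene that contains MIR186, differed by 0.08 (-0.26 to 0.41). Of 1041 microRNA genes, 6 passed the study thresholds, 2 upward (0.192%, against 0.665% of all probe sets) and 4 downward (0.384%, against 0.136%). The 5 besides MIR186 were MIR4712 at 0.81 and MIR450A2 at 0.73, and MIR891A at -0.65, MIR3662 at -0.63 and MIR759 at -0.62. MIR759 read 3.04, 3.07 and 3.04 with elraglusib, against 4.28, 3.51 and 3.21 with DMSO, on the floor of the array, and was -0.31 without DMSO replicate 1. MIR4712, MIR450A2 and MIR3662 fall outside the rule for named genes and were chosen after their values were seen. The mature RNAs that the RefSeq table holds for these 6 genes (GRCh38.p14, 5′ to 3′, the seed of bases 2 to 8 in capitals) are shown because the seed sets which messages each could pair with. For MIR186 only the -3p RNA and for MIR891A only the -5p RNA was read, so any seed of the opposite arm is not shown. The 8 sequences carry 8 different seeds.
hsa-miR-186-3p, chr1:71067642-71067663, minus strand: gCCCAAAGgugaauuuuuuggg
hsa-miR-891a-5p, chrX:146027841-146027862, minus strand: uGCAACGAaccugagccacuga
hsa-miR-3662, chr6:134979355-134979378, minus strand: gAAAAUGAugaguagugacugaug
hsa-miR-759, chr13:52810073-52810094, plus strand: gCAGAGUGcaaacaauuuugac
hsa-miR-4712-5p, chr15:50360337-50360358, plus strand: uCCAGUACaggucucucauuuc
hsa-miR-4712-3p, chr15:50360385-50360405, plus strand: aAUGAGAGaccuguacuguau
hsa-miR-450a-5p, chrX:134540564-134540585, minus strand: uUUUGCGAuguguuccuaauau
hsa-miR-450a-2-3p, chrX:134540529-134540550, minus strand: aUUGGGGAcauuuugcauucau

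The other genes that the study names for NK-92 cells spread in both directions. RAB38, a small GTPase of lysosome-related organelles, read 5.26, 5.37 and 4.82 with elraglusib, against 4.39, 4.43 and 4.59 with DMSO, a difference of 0.68 (0.31 to 1.05; limma adjusted p = 0.811) that passed the study thresholds, with all 6 arrays under 6; it was 0.57 without elraglusib replicate 2, under 1.5-fold. WNK1, a kinase of ion transport, read 10.90, 11.05 and 11.28 with elraglusib, against 10.64, 10.81 and 10.72 with DMSO, a difference of 0.35 (0.06 to 0.65) that stays under 1.5-fold. Both were above DMSO on every elraglusib array. TNFSF14 (LIGHT, a TNF family cytokine) read 10.63, 10.41 and 9.34 with elraglusib, against 9.88, 10.19 and 9.90 with DMSO, so that replicate 3 lay below and the other 2 above all DMSO arrays. Its difference of 0.14 (-0.58 to 0.86) was 0.53 without elraglusib replicate 3 and -0.115 without replicate 1. S100A12, a calcium-binding protein of myeloid cells, overlapped at 10.51, 11.32 and 9.72 with elraglusib and 11.21, 11.47 and 11.10 with DMSO, a difference of -0.74 (-1.57 to 0.08) that was -0.345 without elraglusib replicate 3. ITGB8, an integrin subunit, overlapped too, at 4.49, 4.44 and 4.66 with elraglusib and 4.87, 4.57 and 4.47 with DMSO.

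Only 17 of 17154 protein-coding genes passed the study thresholds, 14 upward and 3 downward, and 12 of the 17 were under 1.5-fold when some array was left out. Apart from RAB38, CENPF, RGS4, OR6X1 and OR4F17 they were chosen after their values were seen. NPIPB11 (0.92), NPIPB4 (0.83), NPIPA3 (0.80) and NPIPB7 (0.60) belong to the nuclear pore complex interacting protein family, a set of recent near-identical duplications whose probes cannot be told apart with certainty. CREBBP, a histone acetyltransferase, read 11.79, 12.20 and 12.57 with elraglusib, against 11.44, 11.66 and 11.42 with DMSO (difference 0.68), and BPTF, a subunit of a nucleosome remodelling complex, differed by 0.61 (0.24 to 0.97). Both lay above DMSO on all 3 elraglusib arrays, and both were under 1.5-fold without elraglusib replicate 3, CREBBP at 0.49 and BPTF at 0.48. TXNIP, an inhibitor of thioredoxin that is known to respond to glucose, differed by 0.60 (0.37 without elraglusib replicate 3) and PTPRCAP, which binds the leukocyte phosphatase CD45, by 0.74. RGS4, a regulator of G protein signalling, had the largest negative difference of them, -0.77; it read 7.87, 7.77 and 6.61 with elraglusib, against 8.07, 8.31 and 8.18 with DMSO, and was -0.37 without elraglusib replicate 3. OR6X1 (-0.66) and OR4F17 (-0.64) are olfactory receptor genes, and both read under 5 on all 6 arrays, near the floor.

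The genes of GSK-3 and its destruction complex kept within narrow bounds. For all 19 of them the interval excluded a 1.5-fold change (100%, against 93.2% of all protein-coding genes), with differences between -0.13 and 0.20 and a median of 0.03. GSK3A overlapped between the groups and differed by 0.04 (-0.34 to 0.42). GSK3B read 11.36, 11.49 and 11.40 with elraglusib, against 11.18, 11.29 and 11.19 with DMSO, a difference of 0.20 (-0.03 to 0.43) with no overlap. CTNNB1, the gene of β-catenin, differed by -0.02 (-0.31 to 0.27). An array of RNA does not read the activity of the kinase or the level of the β-catenin protein.

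WNT response genes were mostly dim in NK-92 cells, with 13 of 23 at a mean signal under 5, where a lower level could not be seen. Of the 23, 22 had an interval that excluded a 1.5-fold change and all 23 one that excluded 2-fold, with a median difference of -0.01. AXIN2, the most general of WNT targets, read 4.74, 4.48 and 4.59 with elraglusib, against 4.70, 4.57 and 4.58 with DMSO, a difference of -0.01 (-0.27 to 0.24) close to the floor of the array. LEF1, a transcription factor that partners β-catenin, differed by -0.06 (-0.32 to 0.21), also near the floor. The exception was MYC, which read 12.20, 12.22 and 11.40 with elraglusib, against 12.28, 12.40 and 12.26 with DMSO, a difference of -0.37 (-0.88 to 0.13). All 3 elraglusib arrays lay below DMSO, replicate 3 well under the other 5 arrays, and the difference was -0.10 without it. Of 13 genes for other GSK-3 substrates, 12 excluded a 1.5-fold change, and JUN (0.31, 0.04 to 0.58) and SREBF2 (0.25, 0.03 to 0.47), transcription factors of stress and of sterol synthesis, lay above DMSO on every elraglusib array.

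The killing machinery of NK-92 cells was bright and its differences centred on 0, but it was less tightly bounded than most genes. Of 24 granule and death ligand genes 12 were higher and 12 lower, with a median difference of 0.00. A 1.5-fold change was excluded for 17 (70.8%, against 90.1% of protein-coding genes with a mean of at least 7) and a 2-fold change for all 24. GZMB averaged 16.15 ± 0.100 with elraglusib and 16.13 ± 0.115 with DMSO (SD, n = 3 each), a difference of 0.02 (-0.24 to 0.28). GZMA differed by 0.04 (-0.27 to 0.34) and NKG7, a granule membrane protein, by -0.02 (-0.32 to 0.28). PRF1, which forms the pores through which granzymes enter, read 15.90, 15.94 and 15.81 with elraglusib, against 15.59, 15.67 and 15.74 with DMSO, a difference of 0.22 (-0.02 to 0.45) without overlap. TNFSF10, the gene of TRAIL, overlapped and differed by -0.11 (-0.52 to 0.31). CHI3L1, a secreted chitinase-like protein, read 12.84, 12.90 and 13.10 with elraglusib, against 13.28, 13.37 and 13.14 with DMSO, a difference of -0.32 (-0.59 to -0.04) without overlap, and its limma adjusted p was 1.

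Cytokine genes had differences between -0.55 and 0.42. IFNG, the gene of IFN-γ, read 14.29, 14.47 and 14.40 with elraglusib, against 13.64, 14.22 and 14.05 with DMSO, a difference of 0.42 (0.05 to 0.79; limma adjusted p = 1). Every elraglusib array was above DMSO, and the difference was 0.25 without DMSO replicate 1. CCL4, a chemokine of activated NK cells, read 16.12, 16.46 and 15.36 with elraglusib, against 16.53, 16.58 and 16.47 with DMSO, a difference of -0.55 (-1.13 to 0.04) without overlap that was -0.24 without elraglusib replicate 3. CCL3, its close relative, overlapped at -0.25 (-0.78 to 0.28), and was 0.025 without elraglusib replicate 3 and -0.43 without replicate 2. CCL1 (0.40, 0.12 to 0.68) was above DMSO and CXCL8, the gene of IL-8 (-0.34, -0.62 to -0.05), below it on all arrays, both under a signal of 6. Of the 27 genes, 3 lay above DMSO on all elraglusib arrays (11.1%, against 4.7% of all probe sets) and 3 below (11.1%, against 3.28%). At a mean signal of 9 to 11, which holds the list's median of 10.06, 8.68% of probe sets lay above and 4.35% below. Of these 27 genes 16 excluded a 1.5-fold change and 26 a 2-fold change, CCL4 being the one that did not.

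Receptors of NK cells showed little, and several were too variable for a tight bound. Of 22 activating receptors and adaptors 14 excluded a 1.5-fold change and 21 a 2-fold change, with a median difference of -0.06. NCR3 (NKp30), the brightest, read 15.47, 15.63 and 14.92 with elraglusib, against 15.50, 15.46 and 15.51 with DMSO, and overlapped. SH2D1A, the adaptor SAP, differed by -0.34 (-0.74 to 0.07), and by -0.17 without elraglusib replicate 3. Of 20 inhibitory and checkpoint receptors 14 excluded a 1.5-fold change, and 0 separated from DMSO on all arrays. KLRG1 read 9.50, 9.38 and 8.42 with elraglusib, against 9.47, 9.80 and 9.63 with DMSO, a difference of -0.53 (-1.16 to 0.10) that was -0.19 without elraglusib replicate 3. Among 27 chemokine and cytokine receptors 23 excluded a 1.5-fold change, with IL2RG, the common chain of the IL-2 receptor, at -0.11 and CXCR4 at 0.14. Of 19 NK transcription factors only 9 excluded a 1.5-fold change. FOXO1, a transcription factor that AKT signalling restrains, read 5.32, 5.80 and 5.82 with elraglusib, against 5.19, 5.26 and 5.19 with DMSO, a difference of 0.43 (0.08 to 0.78), whereas EOMES, which drives the cytotoxic program, differed by 0.01 (-0.36 to 0.37).

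**Figure D4:**
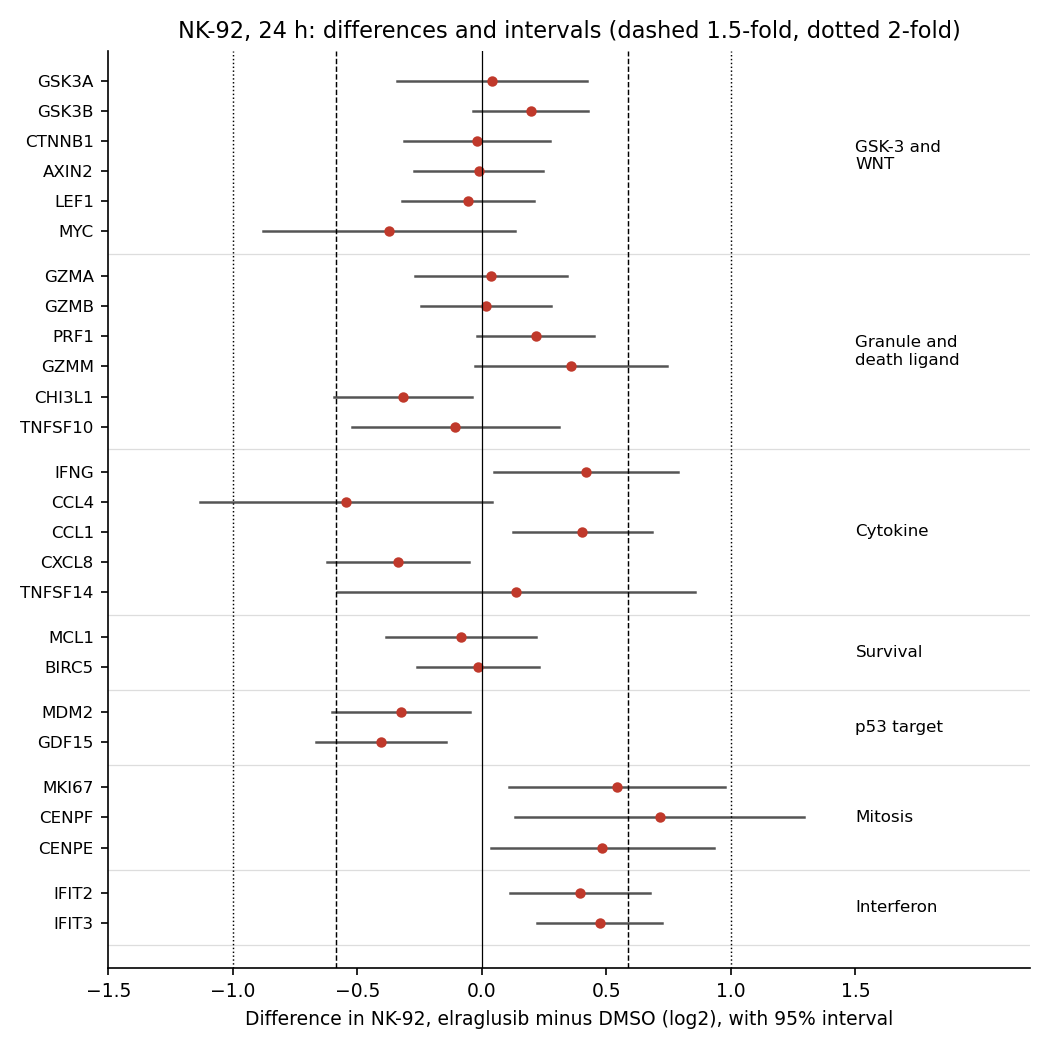
Differences between elraglusib and DMSO in NK-92 cells (horizontal axis, log2; points) with 95% intervals (lines) for 26 genes grouped by role, with dashed lines at 1.5-fold and dotted lines at 2-fold. GZMB at 0.02, AXIN2 at -0.01 and BIRC5 at -0.02 have intervals inside the dashed lines, whereas those of CCL4, TNFSF14 and CENPF at 0.71 cross them.

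Survival genes were bounded about as tightly as protein-coding genes as a whole. Of 20 BCL2 family and survival genes 19 excluded a 1.5-fold change (95%, against 93.2%), and 0 separated from DMSO in either direction. MCL1, an inhibitor of apoptosis whose protein GSK-3 marks for degradation, read 13.19, 12.93 and 12.81 with elraglusib, against 12.95, 13.15 and 13.08 with DMSO. BIRC5, the gene of survivin, read 11.69, 11.65 and 11.67 with elraglusib, against 11.57, 11.81 and 11.68 with DMSO. Both overlapped, with intervals of -0.38 to 0.22 and -0.26 to 0.23. NF-kB subunits, regulators and targets (24 genes) had a median difference of 0.13 with 18 higher, and 4 (16.7%, against 4.7% of all probe sets) lay above DMSO on all arrays: NFKBIA, RELB, REL and IKBKG, with differences of 0.19, 0.20, 0.14 and 0.13, REL and IKBKG being named after their values were seen. The median signal of the 24 genes was 8.48, and 7.9% of probe sets with a mean of 7 to 9 lay above. MAP3K14, the gene of the kinase NIK of the non-canonical NF-kB pathway, differed by 0.07 (-0.20 to 0.34), and CD69, an activation marker, by -0.04 (-0.47 to 0.39).

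Of the mitotic and the histone genes 0 were called. Of 39 genes of G2/M and mitosis 30 were higher with elraglusib, with a median difference of 0.08. On all arrays 11 lay above DMSO (28.2%, against 4.7% of all probe sets) and 1 below (2.56%, against 3.28%). At a mean signal of 11 and over, near the list's median of 11.77, 8.47% of probe sets lay above and 5.48% below. CENPF, a kinetochore protein, was the 1 of these 39 genes past the study thresholds. It read 10.42, 10.50 and 11.30 with elraglusib, against 9.71, 10.17 and 10.20 with DMSO, a difference of 0.71 (0.13 to 1.29) that was 0.43, under 1.5-fold, without elraglusib replicate 3. MKI67, the gene of the proliferation marker Ki-67, read 13.15, 13.46 and 13.53 with elraglusib, against 12.45, 13.05 and 13.01 with DMSO, a difference of 0.54 (0.11 to 0.98) that was 0.35 without DMSO replicate 1. TOP2A, a topoisomerase of dividing cells and among the brightest of the list, differed by 0.01 (-0.27 to 0.28). All 36 S phase genes excluded a 1.5-fold change, with a median of -0.04. Of 26 replication-dependent histone genes 21 were lower, with a median of -0.19, and only 9 excluded a 1.5-fold change. H2BC11 read 12.87, 13.14 and 12.25 with elraglusib, against 13.23, 13.14 and 13.47 with DMSO, a difference of -0.53 (-1.04 to -0.01) that was -0.275 without elraglusib replicate 3, and H1-4, a linker histone and the brightest, differed by -0.13 (-0.44 to 0.18). Histone genes are near-identical copies, so their probe sets may share signal.

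Of 27 interferon response genes 4 lay above DMSO on all elraglusib arrays (14.8%, against 4.7% of all probe sets) and 0 below (0%, against 3.28%), with a median difference of 0.06. The list had a median signal of 8.29, and at 7 to 9 the shares of probe sets were 7.9% above and 1.93% below. IFIT3 read 9.11, 9.25 and 9.02 with elraglusib, against 8.73, 8.64 and 8.59 with DMSO, a difference of 0.47 (0.22 to 0.72; limma adjusted p = 0.811). IFIT2, of the same family of interferon-induced RNA-binding proteins, differed by 0.39 (0.11 to 0.67). The 32 ribosomal protein genes all excluded a 1.5-fold change, with 26 lower and a median of -0.07. Of 18 sterol and fatty acid synthesis genes 15 were higher, with a median of 0.08, and of 24 glycolysis and hypoxia genes 18 were lower, with a median of -0.06. Of 24 integrated stress response genes 21 excluded a 1.5-fold change, and of 10 aryl hydrocarbon receptor targets 8 did. For the remaining lists, median differences were -0.02 for 20 genes of the IL-2 and STAT5 response, 0.02 for 26 of activation and NFAT, 0.02 for 22 of the TGF-beta pathway and 0.04 for 19 of antigen presentation, and 15, 21, 21 and 17 of them excluded a 1.5-fold change.

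p53 target genes had no upward shift in NK-92 cells. Of 36, 33 excluded a 1.5-fold change and all 36 a 2-fold change, with a median difference of -0.04. On all arrays 0 lay above DMSO (0%, against 4.7% of all probe sets) and 5 below (13.9%, against 3.28%). At a mean signal of 7 to 9, near the list's median of 7.26, 7.9% of probe sets lay above and 1.93% below. MDM2, which encodes the ligase that degrades p53, read 11.92, 11.66 and 11.61 with elraglusib, against 12.04, 12.13 and 11.99 with DMSO, a difference of -0.32 (-0.60 to -0.05). GDF15, a stress-induced secreted factor, read 4.26, 4.22 and 4.44 with elraglusib, against 4.62, 4.70 and 4.82 with DMSO, a difference of -0.41 (-0.67 to -0.15) near the floor of the array. Both lay wholly below DMSO, and for both the limma adjusted p was 0.998 or above.

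The same drug gave called changes in the colorectal lines, and 0 in TALL-104 cells, the other cytotoxic line. In KM12C cells 407 of the 67528 probe sets rose and 604 fell. In HCT-116 cells 552 probe sets rose (0.817%) and 227 fell (0.336%), and in HT-29 cells 3120 rose (4.62%) and 2288 fell (3.39%). Those 4 sets were chosen on the arrays of HCT-116 and HT-29 alone and then read in NK-92 cells. The NK-92 interval excluded the change seen in HCT-116 cells for 91.5% of the probe sets that rose there and 96% of those that fell, and the change seen in HT-29 cells for 93.2% and 95.3%. These shares take the estimate of the other line as free of error, although it was selected for being called. They are therefore no test of a difference between lines, and the contrast that carries the error of both lines is given below. The median difference in NK-92 cells was 0.01 and -0.01 for the probe sets that rose and fell in HCT-116 cells, against 0.85 and -0.75 in HCT-116 cells themselves. For those of HT-29 cells it was 0.08 and -0.03 in NK-92 cells, against 0.89 and -0.82 in HT-29 cells. The probe sets that rose in HT-29 cells leaned upward in NK-92 cells, with 2134 of 3120 higher (68.4%, against 49.5% of all probe sets). Of them 405 lay above all DMSO arrays (13%, against 4.7%) and 68 below (2.18%, against 3.28%). The study thresholds were passed upward by 124 (3.97%, against 0.665%) and downward by 0. Among all probe sets with a mean of 5 to 7, near this set's median of 6.49, 57.6% were higher. There 6.07% lay above, 2.31% lay below and 0.753% passed the thresholds upward. Of those that fell in HT-29 cells, 42.9% were higher.

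The difference in response was tested as a contrast in a limma fit over all 30 arrays. Between NK-92 and TALL-104 cells 0 probe sets had a higher and 0 a lower response in NK-92 (0% each), with 5225 at an unadjusted p under 0.05, and limma on the 12 arrays of both lines also called 0. One TALL-104 array, DMSO replicate 2, stood apart from its group, and the count without it was 0 as well. Between NK-92 and HCT-116 cells the response was higher in NK-92 at 19 probe sets (0.0281%) and lower at 106 (0.157%). Between NK-92 and HT-29 cells it was higher at 967 (1.43%) and lower at 1139 (1.69%). Without TALL-104 DMSO replicate 2 these counts were 334 for HCT-116 and 3618 for HT-29 in both directions together.

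p53 targets led the difference from HCT-116 cells, where 31 of 36 rose with a median of 1.22, and the contrast was called for 12 of 36, all lower in NK-92. MDM2 differed by -0.32 in NK-92 and 2.08 in HCT-116 cells, a contrast of -2.40 ± 0.491 (SE; limma adjusted p = 0.0384). GDF15 differed by -0.41 in NK-92 and 2.92 in HCT-116 cells (contrast -3.33, adjusted p = 3e-05). PLK2, a kinase induced by p53, differed by -0.10 in NK-92 and 2.33 in HCT-116 cells (contrast -2.43, adjusted p = 9.03e-10), and CYP1A1, the classic target of the aryl hydrocarbon receptor, by -0.15 and 2.44 (contrast -2.59, adjusted p = 0.000896). PLK2, GDF15 and CYP1A1 were under 5 on every NK-92 array, near the floor, whereas MDM2 was bright in NK-92 cells.

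Histone genes led the difference from HT-29 cells, where 23 of 26 fell with a median of -2.46, and the contrast was called for 20 of 26, all higher in NK-92. H1-4 differed by -0.13 in NK-92 and -4.24 in HT-29 cells (contrast 4.11 ± 0.305 SE, limma adjusted p = 6.96e-09). H2BC14 differed by -0.45 in NK-92 (-0.18 without elraglusib replicate 3) and -4.41 in HT-29 cells (contrast 3.96, adjusted p = 6.8e-07). S phase genes fell at 25 of 36 in HT-29 cells, and the contrast was called for 8, all higher in NK-92. TOP2A differed by 0.01 in NK-92 and -2.27 in HT-29 cells (contrast 2.28, adjusted p = 1.5e-06). LGR5, a WNT target and intestinal stem cell marker that NK-92 cells do not express above the floor, differed by 0.02 in NK-92 and -3.41 in HT-29 cells (contrast 3.43, adjusted p = 1.55e-09).

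**Figure D5:**
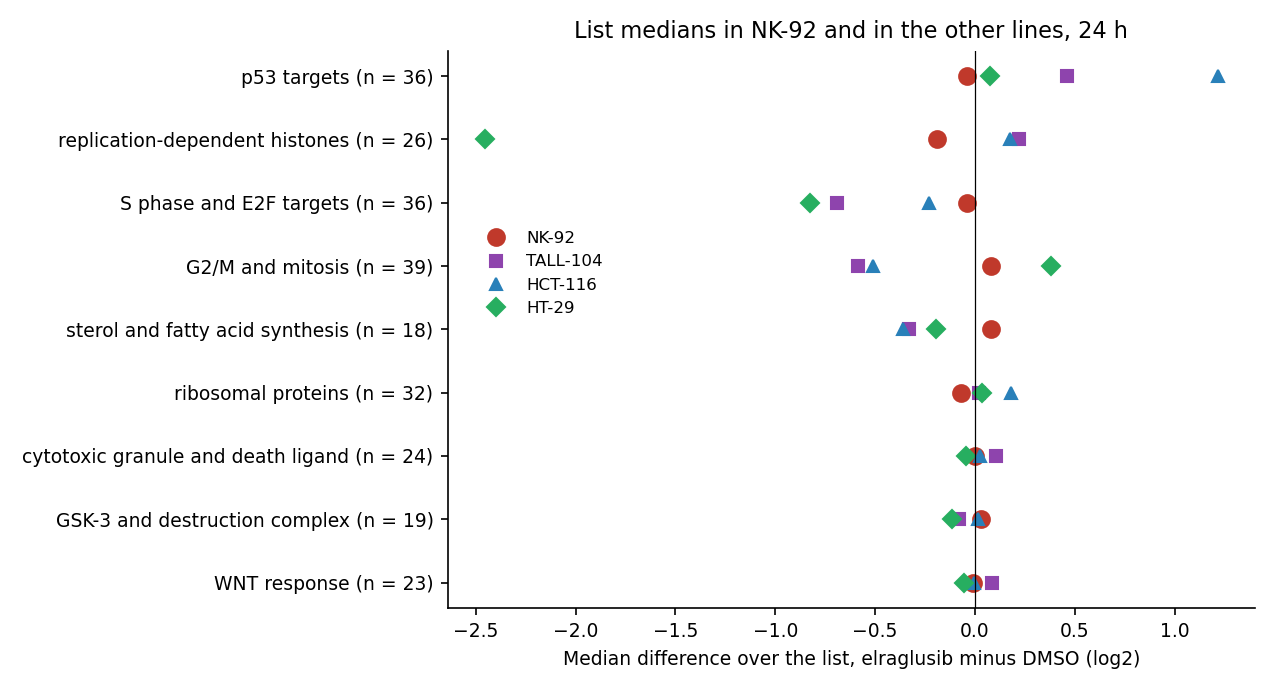
Median difference between elraglusib and DMSO (horizontal axis, log2) over the members of 9 gene lists in NK-92, TALL-104, HCT-116 and HT-29 cells. The NK-92 medians lie between -0.19 for histone genes and 0.08, while HCT-116 reaches 1.22 for p53 targets and HT-29 reaches -2.46 for histone genes.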

How the data were processed

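The authors summarised each Human Transcriptome Array 2.0 with the Transcriptomic Analysis Console and deposited log2 signals with 2 decimals. How these were background-corrected and normalized, and with which version, the sources do not say. No value was filtered or rescaled. Elraglusib (n = 3) was compared with DMSO (n = 3) in limma 3.58.1 under R 4.3.3 (lmFit, eBayes), on the 6 NK-92 arrays alone, with Benjamini-Hochberg adjustment over 67528 probe sets. A change was excluded where the 95% interval of the moderated difference lay wholly inside it. Responses of lines were contrasted in a limma model of all 30 arrays. An exact permutation test of 3 against 3 arrays cannot go below 0.1, so none was run. The number of arrays limits the precision.

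Symbols came from the platform annotation, with 306 probe sets updated through RefSeq, and 23777 of 23781 are in RefSeq. Named genes are those the study names or measures in NK-92 cells, the 8 largest positive and negative differences past the study thresholds without overlap (6 negative ones qualified), up to 4 members of each of 27 lists by smallest p and by signal, all members of 4 lists, and up to 6 genes with the largest contrasts in each direction. The members and lists were chosen with earlier results of these data known. Of 1041 microRNA genes, 965 matched the RefSeq sequence table. Steps were tested on simulated data. Alternatives were quantile normalization, leaving out dim probe sets, trend and robust options of eBayes, the model of all arrays, array weights, a replicate block, tests without moderation, Bonferroni intervals, 1 probe set per gene and leaving out each array. Keeping 1 probe set per value pattern, leaving out TALL-104 DMSO replicate 2 and the differences of all named genes without 1 array were added after seeing the data.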

Additional observations from a re-analysis of the deposited data

Results flagged for a closer look

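For 12 of the genes named above the response to elraglusib differed between NK-92 and a colorectal line in the test of that difference (limma over all 30 arrays, adjusted p under 0.05), and each is given as NK-92 minus the other line on the log2 scale. Against HCT-116 cells the response in NK-92 was lower for GDF15 (-3.33), CYP1A1 (-2.59), PLK2 (-2.43), MDM2 (-2.40) and CXCL8 (-1.29). CXCL8 differed by -0.34 in NK-92 and 0.95 in HCT-116 cells. Against HT-29 cells it was higher for H1-4 (4.11), H2BC14 (3.96), LINC00273 (3.54), LGR5 (3.43), NFKBIA (2.76), H2BC11 (2.49) and TOP2A (2.28). LINC00273 differed by 1.38 in NK-92 (0.06 at its other, dim probe set) and -2.15 in HT-29 cells. NFKBIA, the NF-kB inhibitor, differed by 0.19 in NK-92 and -2.57 in HT-29 cells. The limma adjusted p was 0.0384 for MDM2, 0.0348 for LINC00273, 0.0207 for CXCL8 and 0.0197 for NFKBIA, and smaller for the other genes. The cause of these differences was not tested.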

How the results depend on the processing

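The count of called NK-92 probe sets was 0 in every other alternative run, and 1 in the model of all 30 arrays, 1 in the unpaired and 6 in the paired test without moderation; the residual spread of those paired differences was near 0 at 2 decimals. The count past the study thresholds (541) was 816 with array weights, 111 with 1 probe set per gene, which tests fewer features, 307 in the unpaired and 234 in the paired test without moderation, and 659 to 1037 when an array was left out. With Bonferroni intervals, 0% of probe sets excluded a 1.5-fold and 0% a 2-fold change. Probe sets responding otherwise than in HCT-116 cells (125) numbered 237 on the 12 arrays of both lines, 211 after quantile normalization, 58 with the replicate block and 61 to 95 without 1 NK-92 array. Without TALL-104 DMSO replicate 2 they numbered 334, and for HT-29 cells 3618, against 1575 to 1979 without 1 NK-92 array. With array weights the difference of CD69 was 0.117 and that of MCL1 0.0111, opposite in sign to the reported values. Leaving out 1 array also turned signs, with ranges of -0.115 to 0.53 for TNFSF14 (-0.005 without elraglusib replicate 2), -0.19 to 0.01 for ITGB8, -0.238 to 0.0967 for CD69 (0.0217 and 0.00833 among them), -0.075 to 0.045 for BIRC5, -0.00333 to 0.142 for MAP3K14, -0.242 to 0.0633 for TNFSF10 and -0.05 to 0.0667 for GZMB (-0.0333 without elraglusib replicate 1). None of these genes passed a threshold, and the causes were not tested. Over 28 genes, 319 values under alternatives kept their direction and 14 turned sign. A value that kept its direction could still cross 1.5-fold, as RAB38 did at 0.57 without elraglusib replicate 2. Same-numbered replicates did not deviate together (correlations of -0.131, 0.146 and -0.00428). With so few arrays this cannot show whether the cultures were set up in pairs, and the labels do not say. The replicate block gave 0 calls and 599 probe sets past the study thresholds.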
